A study of Homo sapiens with 24 samples.

Results

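The transcripts of MYC, MYCN and 8 immediate early genes (JUN, JUNB, JUND, FOS, EGR1, ATF3, IER2 and IER5) were followed through m6A-seq of human pancreatic differentiation. Every peak whose gene identifiers included one of these 10 genes was taken, which gave 171 peaks among the 228472 peaks of 6 lists. In m6A-seq, fragmented RNA is pulled down with an antibody that binds N6-methyladenosine (m6A), and the fragments pulled down (IP) are sequenced alongside the starting fragments (input). Batch 1 followed cells with intact ALKBH5 from the pluripotent state (hPSC) through endoderm (definitive endoderm, DE) and progenitors of the pancreas (PP) to organoids resembling islets (hILO). Batch 2 held progenitors with intact ALKBH5 (WT PP) and progenitors in which ALKBH5, an m6A demethylase, had been knocked out (A5-KO PP). All populations came from MEL1, an established human embryonic stem cell line, which per the study's methods carries a GFP reporter in 1 INS allele. Batch 1 used mRNA and a SYSY antibody, whereas batch 2 used total RNA, a Millipore antibody and another library kit, so values were compared within a batch only. The 24 libraries were 2 IP and 2 input libraries for every population, from which 1 pooled list was made, so no spread between replicates and no test between populations could be had. Where 4 values are given for batch 1 they stand in the order of differentiation (hPSC, DE, PP, hILO).

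MYC and MYCN are transcription factors that drive growth and the cell cycle. JUN, JUNB, JUND and FOS are subunits of the AP-1 transcription factor, EGR1 is a zinc finger factor, ATF3 is a stress-induced factor, and IER2 and IER5 are products of early response genes. Immediate early genes are transcribed within minutes of a stimulus without new protein synthesis, and their mRNAs are short-lived. m6A is written by METTL3 with METTL14, mostly near stop codons and in long exons, and is read by proteins that among other effects shorten the life of an mRNA.

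In these lists the counts did not always stand on the line of their own peak. The counts on many lines were those of a peak a few places later, with the shift growing along each list. Each peak was therefore re-matched to the line that held its counts, with the shift estimated from genes other than the 10. A rule of the model was chosen after seeing EGR1 in PP, so that choice was not blind to the members. This gave counts for 167 of the 171 peaks, of which 118 came from another line. Among 108 pairs of neighbouring peaks of the same gene, the input reads per nt correlated at Spearman rho 0.24 on the lines as deposited and at 0.72 after re-matching. Their typical fold difference fell from 4.07 to 1.79. The model seeks the same likeness of neighbours in other genes, so this is no independent check of it. The log2 enrichment reported below is the log2 ratio of the re-matched IP and input reads with the authors' correction at the GC content of the peak itself. Its error is the counting error (1 SE) of the pooled reads, which leaves out the spread between libraries. Presence, position and sequence of peaks do not depend on this step, unless the lists were cut on the shifted values, which was not tested. Between 50 peak numbers (hPSC) and 4550 (WT PP) were missing from a list, so a gene without a peak at a place may have lost it there.

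**Figure D1:**
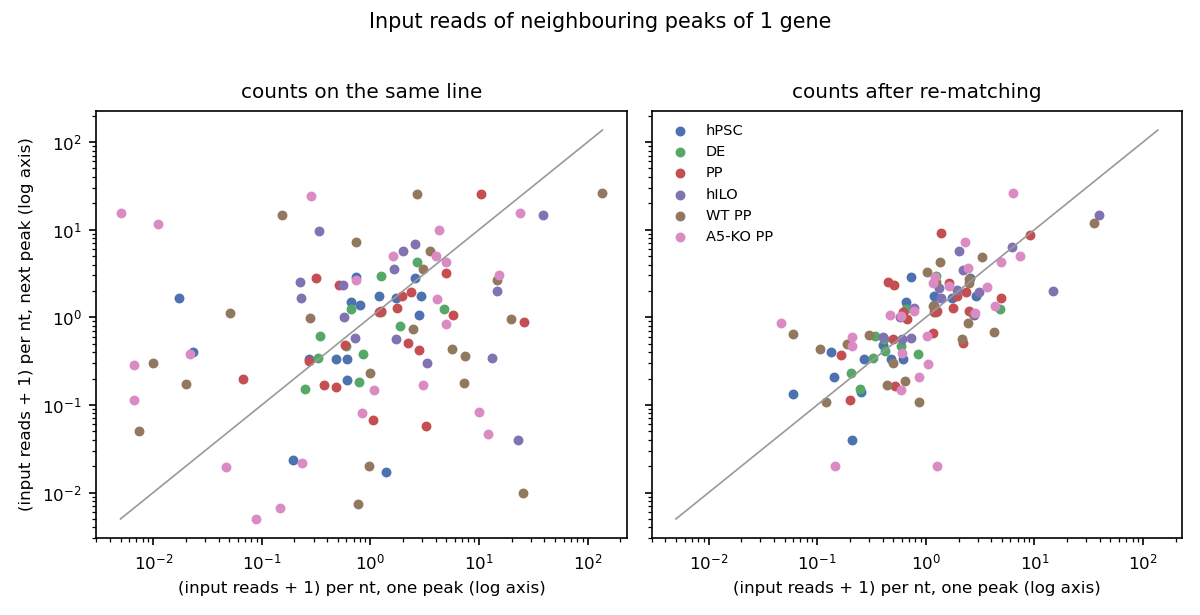
Input reads per nt (1 added, log axes) of neighbouring peaks of 1 gene, for the 10 genes; each point is a pair of neighbours, coloured by population, and the line marks equal values. With the counts on the deposited line (left) the points scatter widely (rho 0.24), and after re-matching (right) they follow the line (rho 0.72, 108 pairs).

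Stage markers were checked first. Percentiles rank a peak among the re-matched peaks of its list, and those without re-matching among all peaks of the list. Peaks of POU5F1 and NANOG, pluripotency factors, occurred in hPSC and DE only, and those of INS, GCG and SST, islet hormones, in hILO only. Of the markers of other endodermal cells, ALB had a peak in hILO, at percentile 84.8. AFP had a peak in hILO, WT PP and A5-KO PP, with no re-matched value. The input reads per nt of the leading POU5F1 peak were at percentile 99.4 of the hPSC list, those of SOX17 (endoderm) at 98.7 of DE, those of PDX1 (pancreas) at 96.2 of PP and those of INS at 99.6 of hILO. PDX1 was at percentile 97.8 of WT PP and 98.3 of A5-KO PP. NKX6-1, another progenitor factor, was at 68.2 of WT PP, with 2982 input reads over 5 peaks, and at 47 of A5-KO PP, with 42 over 3 peaks. SOX17 also had peaks in both, at 37.4 and 72.1. Without re-matching the order for NKX6-1 was the reverse (33.2 and 86.4), and for SOX17 too (55.4 and 12.3). ALKBH5 had 4 peaks in the WT PP list and 5 in the A5-KO PP list with no re-matched value, so the knockout was not checked here. Reads inside peaks ranged from 6987612 (PP) to 28463998 (hILO) for input and from 30723097 (DE) to 79822815 (hPSC) for IP.

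All 10 genes carried a peak in 5 of the 6 lists, and 9 of them did in DE, where FOS had none. The members had 26, 21, 32 and 25 peaks over the stages of batch 1, while WT PP had 32 and A5-KO PP 35. Of all 20046 coding genes 60.2%, 57%, 52.2% and 57.7% carried a peak over those stages, while WT PP reached 62.8% and A5-KO PP 69.7%. EGR1 had the most peaks over the 6 lists (23), followed by JUN (22) and ATF3 (20), and FOS the fewest (11). Each of the 171 peaks belonged to 1 gene alone.

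Member peaks lay in the 3UTR and the coding sequence alike. By their midpoint on the longest coding isoform, 73 peaks fell in the 3UTR, 72 in the coding sequence (CDS) and 18 in the 5UTR, and 8 lay outside that isoform. The CDS share over batch 1 was 34.6% (Wilson 95% interval 19.4 to 53.8), 47.6% (28.3 to 67.6), 40.6% (25.5 to 57.7) and 44% (26.7 to 62.9). For WT PP it was 34.4% (20.4 to 51.7) and for A5-KO PP 51.4% (35.6 to 67). These intervals, which cover counting error only, overlapped for every pair of lists. In the hPSC list 8 member peaks had their midpoint within 200 nt of the stop codon, and the other lists held between 8 and 10 such peaks.

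Several stretches were covered by a peak in each of the 6 lists, and for 5 genes such a stretch ran over the stop codon. Positions below count from the last base of the stop codon. In MYC (chromosome 8, 3 exons in the isoform used) it ran from -115 to 184, on chr8:127740843-127741142, with another from -315 to -191 in the CDS. In MYCN (chromosome 2) it ran from -105 to 119, on chr2:15945992-15946216, beside one from -305 to -131 in the CDS and one from 445 to 494 in the 3UTR. In JUN (chromosome 1, 1 exon) it ran from -90 to 384, on chr1:58781691-58782165, and in ATF3 (chromosome 1) from -42 to 132. In EGR1 (chromosome 5) it ran from -39 to 185, and a further stretch from -1014 to -815 in the CDS was also common to the 6 lists. JUN had one more, of 125 nt, over the start codon of the isoform used. Peak midpoints near that place fell in the 5UTR of the Ensembl canonical isoform in hPSC, DE and hILO.

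For the other genes the common stretch lay off the stop codon. In JUNB (chromosome 19) it was 175 nt of the 3UTR, from 296 to 470. In IER5 (chromosome 1, 1 exon) it held the CDS from -211 to -12 and the 3UTR from 89 to 313 and from 689 to 763. JUND and IER2, both on chromosome 19, had no stretch common to the 6 lists. JUND was covered from -327 to -153 and from 73 to 247 in 5 lists, all but WT PP, where its 2 peaks lay further upstream. IER2 was covered from -275 to -151 and from 225 to 499 in 5 lists, all but A5-KO PP, where its 2 peaks had their midpoints at -1300 and 800. The former lies in the 5UTR of the isoform used and outside the Ensembl canonical one. FOS (chromosome 14) was covered from -204 to -155 in the 5 lists in which it had a peak.

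**Figure D2:**
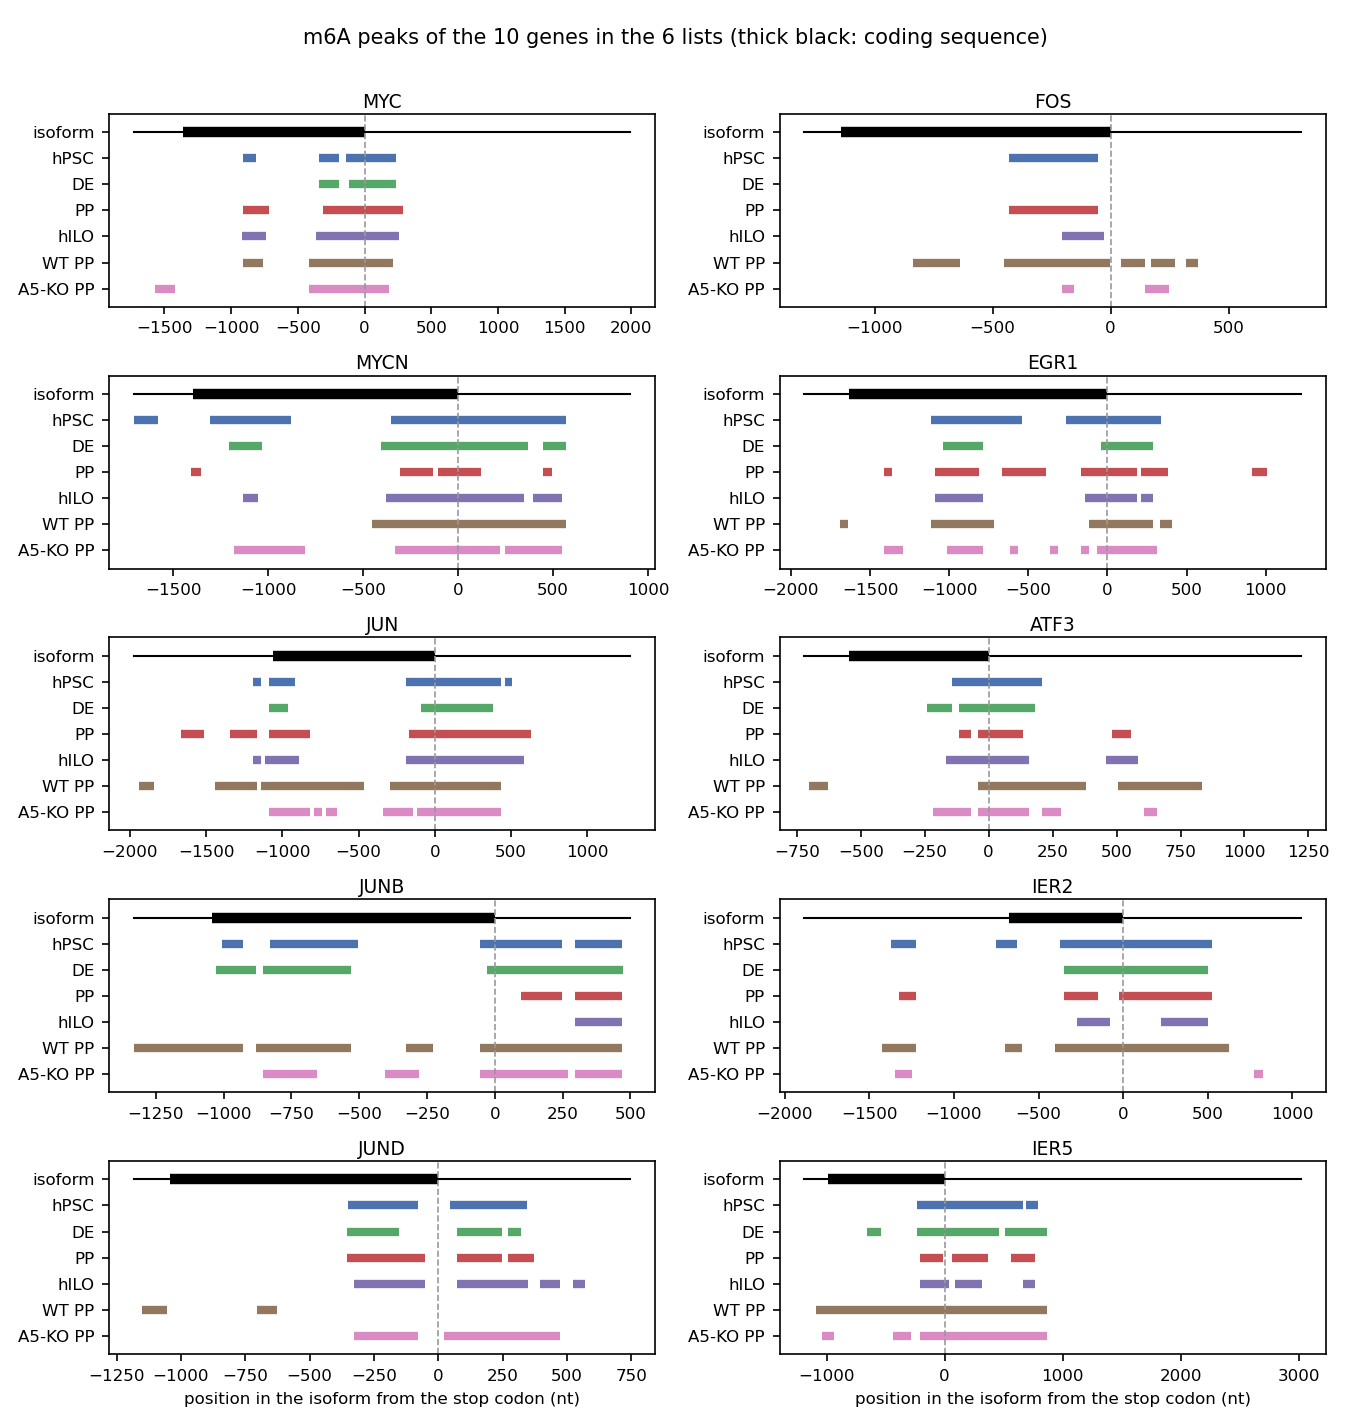
Peaks of the 10 genes along the longest coding isoform; the x axis is the distance from the stop codon in nt, each coloured row is a population, and the thick black bar is the coding sequence. Peaks over or next to the stop codon recur in MYC, MYCN, JUN, EGR1 and ATF3 in the 6 lists. IER2 in A5-KO PP and JUND in WT PP lack the stretches, off the stop codon, that 5 lists share.

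The m6A consensus is DRACH, that is A, G or T, then A or G, then A, C and lastly A, C or T, with the methylated base at the third place. To show what the common stretches hold, 1 site per gene is printed, for JUND and IER2 from stretches covered in 5 lists, from the GRCh38 genome on the transcript strand, 25 nt long with the motif in capitals. The site is the one nearest the stop codon, taking GGACT before other GGAC sites and those before the rest. The MYC sequence is not printed.
MYCN, CDS, chr2:15946077-15946101, plus strand: gaacacgctcGGACTtgctagacgc
JUN, 3UTR, chr1:58781929-58781953, minus strand: tatccaagttGGACTgggttgcgtc
JUNB, 3UTR, chr19:12793133-12793157, plus strand: aagcccgcggGGACAttgggaaggg
JUND, 3UTR, chr19:18280353-18280377, minus strand: tgggcgccccGGACTtggagagggt
EGR1, CDS, chr5:138468052-138468076, plus strand: ttttctcccaGGACAattgaaattt
ATF3, CDS, chr1:212619529-212619553, plus strand: ataaaagaagGAACAttgcagagct
IER2, CDS, chr19:13153576-13153600, plus strand: cggggacgctGGACTggtcccgagc
IER5, CDS, chr1:181089727-181089751, plus strand: cagtttctcgGGACTcctacggaaa
The adenosine of the MYCN site lay at -8 from the stop codon, that of ATF3 at -14 and that of EGR1 at -17, whereas the JUN site lay at 134 and the JUNB site at 330 in the 3UTR. The common stretches of JUN held 27 DRACH sites in 600 nt, those of MYC and MYCN 14 each in 425 and 450 nt, and that of ATF3 held 3, none of them GGAC. The 50 nt of FOS held none. A motif match is no proof of methylation at that base.

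Member peaks held more DRACH sites per length than the rest of the exons of their genes, but little more than the isoforms of all coding genes. Per 100 nt of peak there were 2.02, 2.16, 2.2 and 2.14 sites over batch 1, while WT PP had 1.94 and A5-KO PP 2.07. Matches were counted on the transcript strand and could overlap. Outside their peaks the exons of the same genes held 1.48 to 1.52. These exons were merged over all annotated isoforms, whether or not used in these cells. The longest isoforms of all coding genes held 1.9. For GGAC alone the densities were 0.623 to 0.882 in the peaks, 0.309 to 0.369 outside and 0.382 over all coding genes. A DRACH site stood in 24 of 26, 21 of 21, 28 of 32 and 22 of 25 peaks over batch 1, while WT PP had 26 of 32 and A5-KO PP 28 of 35. The median GC content of member peaks was 52.4% (hILO) to 59.6% (PP), above the 46% to 50.3% of the whole lists.

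Levels are given as the input reads per nt of the leading peak of a gene, the peak with most IP reads among those with at least 50 input reads. This level is comparable between genes within a list, but other peaks of a gene can stand at other levels. Its percentile ranks it among the re-matched peaks of its list, which were 55.3% (A5-KO PP) to 75.4% (DE) of the list. Percentiles are read within a batch only. In a pooled sample, fewer cells with a transcript and less transcript per cell cannot be told apart.

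MYC had 397 input and 6282 IP reads in its leading peak in hPSC, 133 and 516 in DE, 5148 and 25330 in PP, 3985 and 14790 in hILO, 349 and 2431 for WT PP and 281 and 1370 for A5-KO PP. The input level stood at percentiles 79, 38.3, 97.5 and 90.6 of its list over batch 1, at 54.3 for WT PP and at 59.4 for A5-KO PP. The other MYC peaks of hPSC, both in the CDS, stood higher than its leading peak, at 92.1 and 93, and the CDS peak of PP at 97.7 and of hILO at 90.3. PP thus had the highest MYC level of batch 1 and DE the lowest, whereas the order of hPSC and hILO turned with the peak taken. The log2 enrichment of this peak was 2.60 ± 0.07, 2.68 ± 0.14, 2.21 ± 0.02 and 2.09 ± 0.03 over batch 1. In batch 2 it was 5.25 ± 0.08 for WT PP and 4.97 ± 0.09 for A5-KO PP, on a scale of its own. In batch 1 these peaks measured 375 and 350 nt in hPSC and DE and 600 and 625 nt in PP and hILO.

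MYCN, a paralogue of MYC, had its highest input level of batch 1 in hPSC. The level of its leading peak was at percentiles 87.2, 35, 39.5 and 48.5 over batch 1, at 68.8 for WT PP and at 75.3 for A5-KO PP. Its log2 enrichment was 2.25 ± 0.04, 2.12 ± 0.10, 2.18 ± 0.17 and 1.93 ± 0.05 over batch 1. Neighbouring stages of batch 1 differed by less than 2 counting errors. In batch 2 it was 4.99 ± 0.05 for WT PP and 4.35 ± 0.07 for A5-KO PP.

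By leading peak, JUN was the most enriched of the AP-1 genes, and JUND or FOS the least. The leading JUN peak, over its stop codon and 3UTR, had a log2 enrichment of 2.85 ± 0.16, 2.63 ± 0.16, 2.44 ± 0.07 and 2.55 ± 0.05 over batch 1, 5.39 ± 0.05 for WT PP and 5.93 ± 0.07 for A5-KO PP. This was the highest value among the leading peaks of the members in each list but DE, where MYC (2.68 ± 0.14) stood above it within the counting error. By the count ratio with no GC correction, IER2 stood above JUN in PP, and JUN above MYC in DE. JUN rested on few input reads in the early stages, 82 in hPSC and 97 in DE against 1027 in hILO. The leading JUND peak, in the CDS, had 1.56 ± 0.07, 1.73 ± 0.07, 1.51 ± 0.06 and 1.07 ± 0.04 over batch 1, 1.79 ± 0.04 for WT PP and 2.88 ± 0.02 for A5-KO PP. The WT PP value came from another stretch than the rest, at -665. The JUND 3UTR peak, which did not lead, stood higher, at 2.60 ± 0.10 in DE and 3.04 ± 0.16 in PP, the latter on 89 input reads. By the authors' log2 enrichment as deposited, on lines that were not shifted, it stood at 1.94 in DE and 1.77 in PP, so whether it passed JUN in PP depends on the reading. The input level of the leading JUND peak lay between percentiles 85.6 (hPSC) and 99.6 (A5-KO PP), and that of the 3UTR peak at 67.2, 71.1, 49.8 and 62.4 over batch 1.

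JUNB had leading 3UTR peaks, centred between 96 and 383 nt past the stop codon, at 2.15 ± 0.19 in hPSC, 2.01 ± 0.10 in DE, 1.90 ± 0.16 in hILO, 5.05 ± 0.08 for WT PP and 5.53 ± 0.11 for A5-KO PP. Its 2 peaks in PP held 29 and 19 input reads, too few for a leading peak. FOS, the usual partner of JUN, had a leading peak in 4 lists, with 1.21 ± 0.06 in PP, 1.16 ± 0.10 in hILO, 4.78 ± 0.17 for WT PP and 3.33 ± 0.20 for A5-KO PP. Its hPSC peak held 34 input and 361 IP reads.

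EGR1 had 2 leading places. In hPSC, DE, PP and WT PP the CDS peak led, with a log2 enrichment of 1.80 ± 0.08, 1.78 ± 0.21, 1.43 ± 0.07 and 2.71 ± 0.05. In hILO and A5-KO PP the peak over the stop codon led, with 2.16 ± 0.12 and 4.86 ± 0.07. Like for like in batch 2, the stop codon peak stood at 4.98 for WT PP and 4.86 for A5-KO PP, and the CDS peak at 2.71 and 3.19. ATF3 was more even, with 1.81 ± 0.14, 1.69 ± 0.14, 1.51 ± 0.09 and 1.54 ± 0.07 over batch 1, 3.71 ± 0.12 for WT PP and 4.25 ± 0.15 for A5-KO PP. In batch 1 its neighbouring stages differed by less than 2 counting errors.

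IER2 had 2.33 ± 0.04, 2.23 ± 0.05, 2.12 ± 0.06 and 1.95 ± 0.09 over batch 1, each step being smaller than 2 counting errors. It stood at 3.61 ± 0.02 in WT PP, where its leading peak of 1025 nt held 25788 IP reads, and had no leading peak in A5-KO PP. IER5 had 2.34 ± 0.10, 1.92 ± 0.06, 2.11 ± 0.12 and 2.20 ± 0.14 over batch 1, 4.27 ± 0.03 for WT PP and 5.26 ± 0.04 for A5-KO PP. The leading IER5 peak spanned 1950 nt in WT PP and 1075 nt in A5-KO PP, so the last 2 values compare different stretches.

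**Figure D3:**
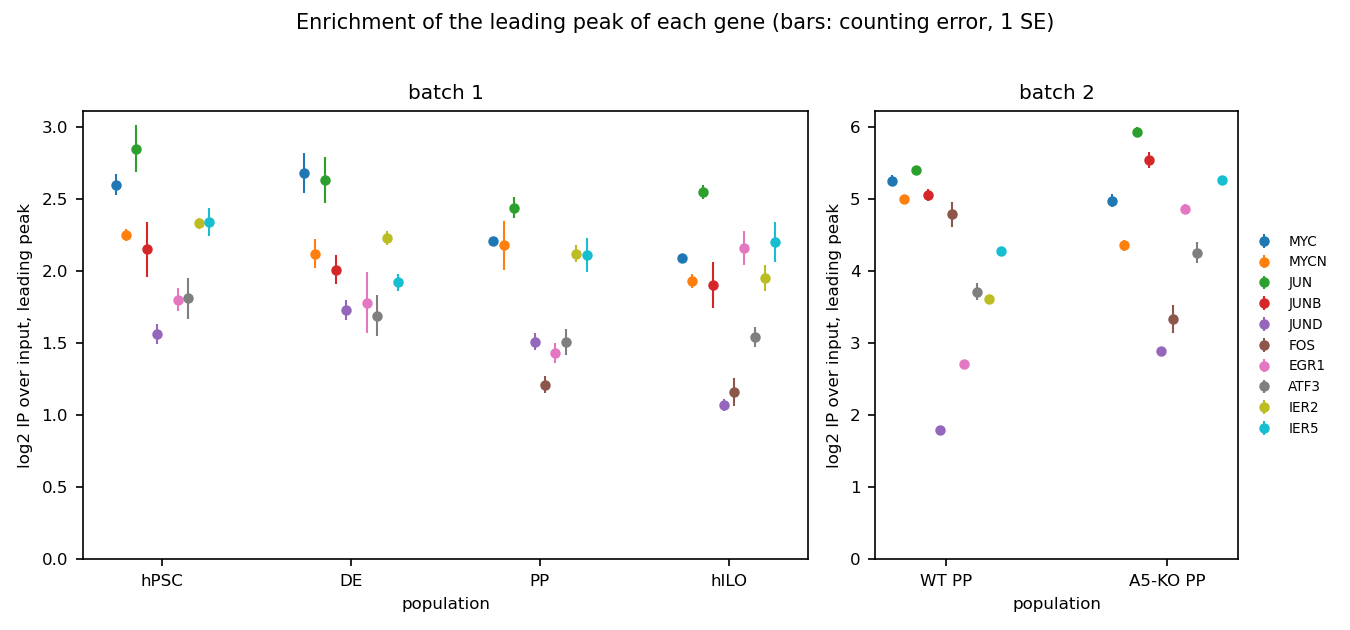
Log2 enrichment of IP over input in the leading peak of each gene, by population, in batch 1 (left) and batch 2 (right, with its own scale); bars are the counting error of the pooled reads (1 SE). JUN lies on top in each list but DE, where MYC lies above it within the error, and JUND and FOS are the lowest in hILO.

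Most member peaks of a list lay on a peak of the list before it. A peak counted as inherited when over 50% of its exonic length was covered by peaks of the previous stage. In DE 19 of 21 member peaks were inherited from hPSC (90.5%, Wilson 95% interval 71.1 to 97.3), against 64.7% of all peaks. In PP 18 of 32 were inherited from DE (56.2%, 39.3 to 71.8), against 57% of all peaks. In hILO 19 of 25 were inherited from PP (76%, 56.6 to 88.5), against 45.6% of all peaks. Counted instead from PP, 59.4% of its member peaks were shared with hILO, against 60.5% of all its peaks. When each peak had to cover over 50% of the other, the share was 66.7% from hPSC to DE (47.5% of all peaks), 28.1% from DE to PP (41.2%), 56% from PP to hILO (37.1%) and 25.7% from WT PP to A5-KO PP (30.5%), so members lay above all peaks in 2 contrasts and below in 2. These differences between members and all peaks were not tested. The median peak length was 250 nt for members against 175 nt for all peaks in DE. It was 175 against 175 nt in PP, 200 against 175 nt in hILO and 150 against 175 nt in A5-KO PP. The part of peak length in the shares was not tested.

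From hPSC to DE the enrichment of the shared member peaks moved little. The median difference over 19 pairs was -0.10 on the log2 scale, against -0.13 over all 14522 shared pairs with values. One member pair rose by at least 1 and none fell by as much, where 1.45% of all pairs rose and 1.87% fell. The pair that rose was in the JUND 3UTR, where a peak of 300 nt in hPSC (196 input and 2165 IP reads, 1.58) met a peak of 175 nt in DE (216 and 1620, 2.60), a difference of 1.02 ± 0.15. The same hPSC peak also covered a DE peak of 50 nt at 1.86, which differed by 0.28 ± 0.15, so the rise sets a merged peak against its more enriched piece. Its lines were not shifted, and by the authors' log2 enrichment as deposited it differed by 0.38, and by the count ratio with no GC correction by 1.29. The stop codon peak of MYC differed by 0.09 ± 0.16 and that of MYCN by -0.13 ± 0.11. The lowest member pair, a MYCN 3UTR peak of 125 nt lying on the long MYCN peak of hPSC, differed by -0.77 ± 0.22, and by -1.29 on the count ratio, where it counts as 1 fall.

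From DE to PP no member pair passed 1 in either direction, among 16 pairs with values. Of all 11838 pairs 3.05% rose and 2.76% fell. The median member difference was -0.15, the same as the -0.15 over all pairs. The stop codon peak of EGR1 differed by -0.71 ± 0.24, on 48 input reads in DE, and that of MYC by -0.47 ± 0.14, both lower in PP. The MYC peak of PP (600 nt) also covered the DE peak in the CDS (1.48), so that a merged peak is set against the higher of its pieces.

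From PP to hILO the median over 18 pairs was -0.05, against -0.01 over all 8654 pairs. No member rose and 1 fell by at least 1, where 0.774% of all pairs rose and 3.33% fell. The fall was again in the JUND 3UTR, from a peak of 175 nt in PP (89 input and 1681 IP reads) to one of 275 nt in hILO (553 and 1875), a difference of -1.60 ± 0.17. A separate PP peak at 1.32 covered much of the rest of the hILO span, so here too the stretches are unequal. By the authors' log2 enrichment as deposited, its lines not being shifted, it differed by -0.55, and by the count ratio by -1.98. The size of the JUND changes in either step thus depends on the reading of enrichment, at a GC content of 76% to 76.7%. The direction was the same in each reading, but the unequal stretches are common to them all, and their part was not tested. With the log2 ratio of the counts and no GC correction the median of the members was -0.32 in place of -0.05, and 2 pairs fell. The stop codon peak of MYC differed by -0.12 ± 0.03 and its CDS peak, at -828 in hILO, by -0.42 ± 0.07. By the count ratio they differed by 0.08 and -0.88, and by the authors' log2 enrichment on the re-matched line by 0.60 and 0.20. The direction of both thus turned with the reading.

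In A5-KO PP 22 of 35 member peaks were shared with WT PP (62.9%, 46.3 to 76.8), against 46.8% of all peaks. Counted from WT PP, 34.4% of its member peaks were shared, against 50% of all its peaks. After re-matching, NKX6-1 was lower in A5-KO PP, as given above, and the part of that in the differences below was not tested. The median difference over these 22 pairs was 0.18, against 0.08 over all 15652 pairs. Member peaks were shorter in A5-KO PP than in WT PP (median 150 nt against 200 nt), so many pairs did not cover the same stretch. The member pairs held 3 rises and 3 falls of at least 1, where 21% of all pairs rose and 17.1% fell. The 3 rises were an IER2 5UTR peak, an ATF3 3UTR peak and a FOS 3UTR peak, which held 0, 0 and 1 input reads in A5-KO PP against 206, 54 and 29 in WT PP. No fold is given for them. The 3 falls were short CDS peaks lying on longer WT PP peaks, in JUN (-1.88 ± 0.12), IER5 (-1.83 ± 0.09) and FOS (-1.45 ± 0.26). With the count ratio and no GC correction they differed by -1.41, -0.84 and -0.70. The falls by that reading were JUN, JUNB in the 3UTR (-1.28) and MYCN in the 3UTR (-1.19), so 2 of 3 were other pairs. An IER5 pair at 1.00 ± 0.06, of 1075 nt against 1950 nt, stood just under the limit, and differed by 0.21 on the count ratio.

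Peaks over the stop codon differed by 1.00 or less. MYC had 349 input and 2431 IP reads for WT PP and 281 and 1370 for A5-KO PP, a difference of -0.28 ± 0.13. JUN, with 896 and 9824 against 430 and 4751, differed by 0.54 ± 0.09. ATF3, with 184 and 562 against 117 and 381, differed by 0.55 ± 0.20. JUNB, with 359 and 3223 against 196 and 1956, differed by 0.47 ± 0.13. EGR1, with 347 and 2326 against 497 and 2223, differed by -0.12 ± 0.11. MYCN, with 1098 and 7553 in a peak of 1025 nt against 576 and 2067 in one of 550 nt, differed by -0.64 ± 0.08. When both lists had to hold 50 or more input reads, 18 pairs remained and the median was -0.20, opposite in sign to that over all 22. The interquartile range of all shared peaks ran from -0.62 to 0.80, and MYC, JUN, JUNB, EGR1 and ATF3 lay inside it, MYCN below and the IER5 pair at 1.00, which also spans the stop codon, above.

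**Figure D4:**
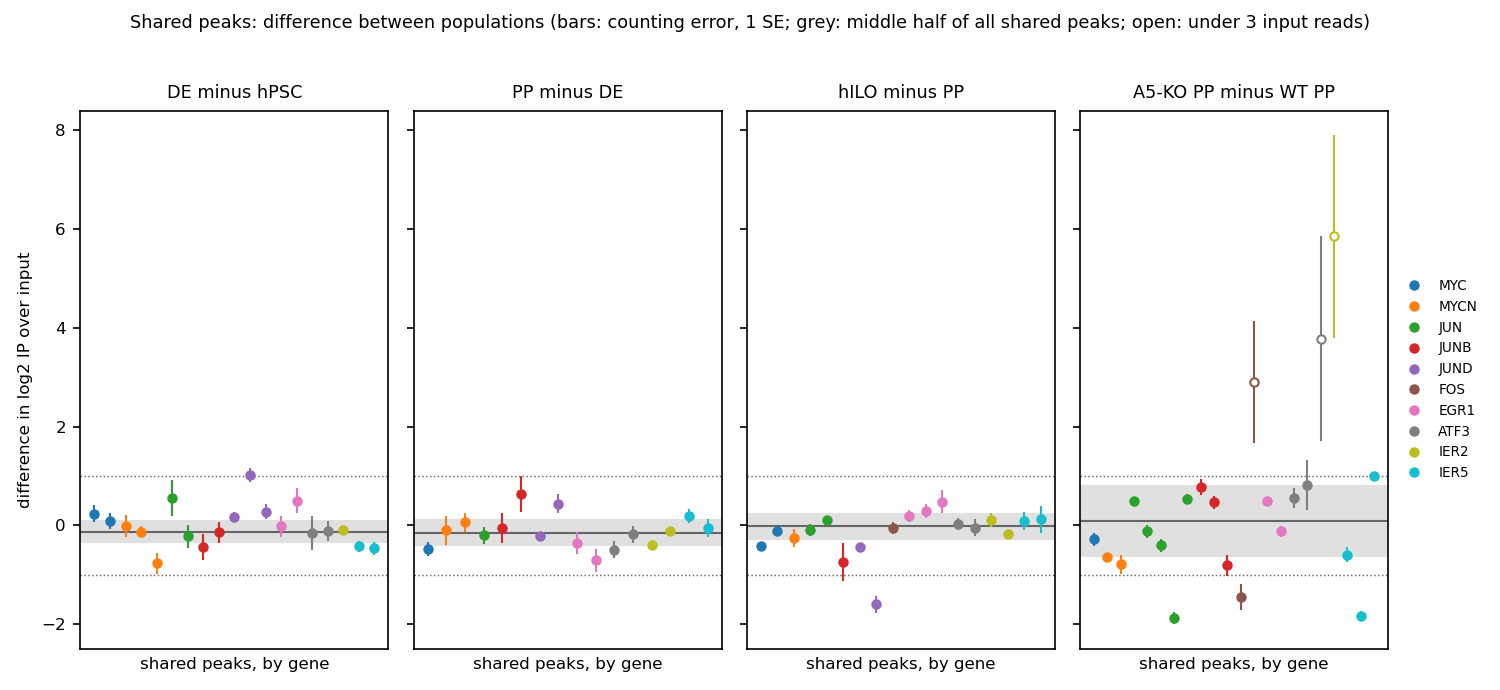
Difference in log2 enrichment of each shared member peak between populations of a batch, coloured by gene, with the counting error (1 SE); the grey band is the interquartile range of all shared peaks, the line their median, the dotted lines -1 and 1. In batch 1 the points past the dotted lines are the 2 of the JUND 3UTR peak, and the high points of A5-KO PP minus WT PP are the 3 peaks with under 3 input reads (open).

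Related genes were counted from 3 lists. Of 18 further early response genes 10, 10, 12 and 12 had a peak over batch 1, while WT PP had 16 and A5-KO PP 15. The share of all coding genes with a peak was 60.2%, 57%, 52.2% and 57.7% over batch 1, and 62.8% and 69.7% in the others. EGR4, a zinc finger factor of the EGR family, had none in any list. Of 11 genes of the MYC network, the partners and antagonists of MYC around MAX, between 9 and 11 had a peak in a list and 9 had one in all 6. Of 10 feedback factors, phosphatases and mRNA decay factors that curb early gene expression, 9 had a peak in each list. DUSP2, a MAP kinase phosphatase, had none.

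Shared peaks of these related genes were compared where each list held 50 or more input reads. The shares of all pairs past 1 printed here had no such filter on reads. From hPSC to DE 0 of 42 passed 1 (1.45% of all pairs rose and 1.87% fell), the extremes being MGA at -0.76 ± 0.26 and MCL1 at 0.42 ± 0.22. From DE to PP 1 of 40 fell (2.76% of all pairs), RHOB at -1.02 ± 0.11, and the highest was MGA at 0.44 ± 0.18. From PP to hILO 0 of 29 passed 1 (0.774% rose and 3.33% fell), with MAX at -0.77 ± 0.15 and DUSP6 at 0.69 ± 0.25. From WT PP to A5-KO PP 5 of 60 rose (21% of all pairs), with MLXIP the highest at 1.26 ± 0.21, and 2 fell (17.1%), with CCN1 the lowest at -1.89 ± 0.21.

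The genes whose leading peak had the enrichment most like a member's over the 6 lists were sought among 2298 coding genes. For MYC they were DCAF16, CEBPG and TOR1AIP2, with root mean square differences of 0.12, 0.14 and 0.15 on the log2 scale. For JUN they were ZNF45, ARMCX4 and JRKL (0.16, 0.19 and 0.20), and for EGR1 SRSF10, ALKBH2 and UBXN4 (0.25, 0.27 and 0.28).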

How the data were processed

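After trimming (fastp) and alignment to GRCh38 (HISAT2), the authors called peaks with exomePeak2 on the IP and input libraries of a population together, with a stated IP/input ratio of at least 1.5 and a stated p below 1e-05. The annotation was not given in the sources used here. The deposited lists gave pooled read counts of IP and input, a log2 enrichment and a p-value with its adjusted p-value, below 0.05 in each list. Between 5.72% (hILO) and 45.9% (A5-KO PP) of the lines had a p-value at or above the stated limit, and these were kept.

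Spans were reduced to the exons of their genes in GENCODE 44 (between 99.2% and 99.4% of the peaks of a list lay on a gene of their own strand). Deposited counts were found to stand some lines before their own coordinates. This lag, in lines, rose along the list, for a reason that was not tested. The lag was estimated with a hidden Markov model on the input reads per nt of neighbouring peaks of 1 gene, the members left out, and a peak was used at a posterior of at least 0.95 and a lag of at most 6 lines. Between 55.3% and 75.4% of the peaks of a list were re-matched. The limit of 6 was set after a first version without it missed its mark on simulated data for A5-KO PP. Peaks of other genes at identical coordinates were compared in 15 pairs of lists, a comparison between lists that the fit did not use. Where the line had changed in either list, input reads correlated at rho 0.04 to 0.30 as deposited and 0.48 to 0.79 after re-matching.

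The authors' log2 enrichment differed from the log2 count ratio of its line (pseudocount 1) by an amount that followed the GC content of the line's own coordinates (rho -0.83 to -0.66 on shifted lines). It was therefore read as a running median over 301 peaks by GC content and added to the ratio of the re-matched counts. The other readings named here were tried too. Of these the plain count ratio was a planned setting. The rest came after seeing the data, as did the choice among them. Over the list pairs the median rho of log2 enrichment was 0.48 for the one used, 0.51 for the plain count ratio, 0.46 with deposited values on unshifted lines, 0.36 for the re-matched line's value whole, 0.35 with the correction of each line itself and 0.09 for the own line. Other ways to re-match were set aside. These were a model on gene order against peak number and one guided by a running median. Also set aside were one without blank lines for missing peak numbers and one whose lag could also fall. The rule that the lag only rises was adopted after a version without it gave a lag at EGR1 in PP that looked out of place, so that choice was not blind to the members.

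A peak was shared when over 50% of its exonic length was covered, and a difference of at least 1 in log2 enrichment was counted. Filters on p used the p-value of the re-matched line, which carries the GC correction of another peak. Counting errors take the pooled counts as sums over libraries, which the sources used here do not state. The members and gene lists were chosen with earlier results of these data known. Python 3.11.15, pandas 2.3.3, scipy 1.17.1 and samtools 1.23.1 were used.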

Additional observations from a re-analysis of the deposited data

How the results depend on the processing

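Under other settings 71 values stayed within their limits and 31 moved, and under settings chosen after seeing the data 15 stayed and 9 moved. The limit was a factor of 1.5 for counts, the Wilson interval for shares and the 95% counting interval of the median for differences. No paired analysis was possible because each list pools its libraries and gives no value per replicate, so no library could be left out either. At an IP/input ratio of at least 3 the member peaks were 17 (hPSC), 13 (PP) and 13 (hILO). At p below 1e-10 they were 13 (hPSC), 10 (DE), 17 (PP), 15 (WT PP) and 18 (A5-KO PP). With any CDS overlap counted, the CDS share was 73.1% for hPSC, 81% for DE, 62.5% for WT PP and 71.4% for A5-KO PP. GGAC alone gave 0.756, 0.882, 0.623, 0.648, 0.627 and 0.717 sites per 100 nt in list order. With reciprocal overlap above 50% the shared peaks were 66.7% in DE, 28.1% in PP, 56% in hILO and 25.7% in A5-KO PP, against 47.5%, 41.2%, 37.1% and 30.5% of all peaks. Counted from the earlier list they were 65.4% for hPSC and 34.4% for WT PP, against 52.5% and 50% of all peaks, and for DE and PP 71.4% and 59.4%, against 46.7% and 60.5%.

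The median difference moved with how enrichment was read and, for A5-KO PP minus WT PP, with the read filter and the re-matching. For PP minus DE it was 0.00 and -0.01 from count ratios with pseudocounts 1 and 0.5, -0.53 on the own line, -0.36 with the re-matched line's value whole and -0.36 with the correction of each line itself. For hILO minus PP it was -0.32 and -0.31 from count ratios, 0.08 on the own line, 0.27 with the whole line and 0.10 with the correction of each line. For A5-KO PP minus WT PP it was -0.20 with at least 50 input reads, -0.02 and -0.04 from count ratios, 0.44 with the whole line, 0.43 without blank lines and 0.47 with a lag that could fall. The sign of the last 2 contrasts is thus not settled.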

Other observations

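The leading peak of POU5F1 in hPSC stood at percentile 99.4 of input reads per nt after re-matching and at 26.2 on its deposited line. The former ranks among the re-matched peaks and the latter among all peaks of the list. SOX17 in DE stood at 98.7 against 34.4, and NKX6-1 in PP at 92.4 against 15.3. INS in hILO stood at 99.6 against 99.2. NKX6-1 in A5-KO PP (47 against 86.4) and SOX17 in WT PP (37.4 against 55.4) went the other way. Of 21 pairs of a marker and a list with values, 19 stood higher after re-matching and 2 lower. With the re-matched line's log2 enrichment taken whole, 3 member peaks would have fallen by at least 1 from DE to PP, the stop codon peak of MYC (-1.82), an IER5 3UTR peak (-1.19) and the JUN 3UTR peak (-1.07). With the correction at the GC content of the peak itself these differed by -0.47, -0.05 and -0.20.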
